A study of Brassica rapa with 6 samples.

Results

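The families miR1140, miR1511 and miR5654 are less widely conserved plant miRNAs, described here in leaf and petiole of Chinese cabbage (Brassica rapa). Their members were taken by name: every entry of the deposited table named miR1140, miR1511 or miR5654, with entries of the same sequence counted once. This gave 10 entries and 9 distinct sequences of 1011 in the table, of which 2 were forms of miR1140, 5 of miR1511 and 2 of miR5654. Within the families the members were chosen by their names and sequences, and by no level or difference. The families themselves were singled out with earlier results of these data known, so their calls describe where they stand in the whole table and support nothing further. The groups were leaf and petiole of wild type plants raised in a greenhouse, with no treatment given in the labels, and each had 3 small RNA libraries. The petiole is the stalk that carries the leaf blade. Small RNA tables hold no marker genes, so the tissue labels could not be checked against markers, and plant age and cultivar are not given in the labels.

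Plant miRNAs are cut by a Dicer-like enzyme from the stem of a folded precursor as a short duplex with overhanging 3′ ends. One strand is loaded into an Argonaute protein and guides it to matching mRNAs, and the other, the star strand, is usually lost. The first base of a strand influences which Argonaute takes it up, and in Arabidopsis AGO1 favours a 5′ U. The miR1140 family is known from Brassica, miR5654 from Arabidopsis and Brassica, and miR1511 from legumes and rosaceous fruit trees. In common bean miR1511 targets an aluminium tolerance gene, ALS3. In the names, bra, lja, mdm and ppe stand for Brassica rapa, Lotus japonicus, Malus domestica and Prunus persica. L and R mark bases gained or lost at the ends against the named miRNA, ss marks substitutions, and p5 and p3 mark the side of the precursor.

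The 9 sequences are shown as deposited, in DNA letters and 5′ to 3′, with bases 2 to 8, the seed, in capitals, because the seed groups the forms and the ends tell them apart.
bra-miR1140: aCAGCCTAaaccaatcggagc
bra-MIR1140-p5: cCGATTGGctttaggctgttgt
bra-miR5654a: aTAAATCCcaagcatcatcca
bra-MIR5654a-p3_2ss6GT19TC: aTGATTCTtgggatttatctt
lja-miR1511-3p_2ss5AT24CT: aACCTGGCtctgataccatgaagt
lja-miR1511-3p_R-1_1ss5AT: aACCTGGCtctgataccatgaag
mdm-miR1511_L+1_1ss6AG: aACCTGGCtctgataccatgaa
ppe-miR1511-3p_L+1R-4: aACCTGGCtctgatacca
ppe-MIR1511-p5_1ss2TG: aGAAATAAcctggctctgatacca

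The 4 miR1511 forms named for the mature strand shared the seed ACCTGGC, and no other pair among the 9 sequences shared one. Of the 9 forms, 8 began with A and 1, bra-MIR1140-p5, with C. None began with T (U in RNA), the most frequent first base of the 462 named sequences, of which 35.7% began with T and 30.3% with A. Over all 1011 sequences A was the most frequent first base, at 49.7%, beside 25.5% for T. The 8 forms beginning with A include the 4 miR1511 forms that share a start. Both miR5654 forms and bra-miR1140 were 21 nt long and bra-MIR1140-p5 22 nt. The miR1511 forms were 18, 22, 23, 24 and 24 nt long.

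The 2 miR1140 sequences matched each other as the arms of 1 duplex. They formed 18 base pairs with no mismatch and 1 bulged base on the p5 side, and 3 bases extended past the helix at each 3′ end. In the same way bra-miR5654a and bra-MIR5654a-p3_2ss6GT19TC formed 17 base pairs with 1 mismatch, and again 3 bases extended at each 3′ end. The pairing counts only Watson-Crick pairs and describes the sequences. No genome was used here, so the precursors and their positions are not given.

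The miR1511 forms did not pair in this way. In its best-scoring alignment the entry named for the p5 side formed 6 base pairs, with 2 mismatches, with each other miR1511 form. It instead held the same 18 bases as all 4 mature forms, on the same strand, as the capitals show.
lja-miR1511-3p_2ss5AT24CT: AACCTGGCTCTGATACCAtgaagt
ppe-MIR1511-p5_1ss2TG: agaaatAACCTGGCTCTGATACCA
So ppe-MIR1511-p5_1ss2TG begins 6 bases before the shared stretch and ends with it, whereas lja-miR1511-3p_2ss5AT24CT begins with the stretch and runs 6 bases past it. The form ppe-miR1511-3p_L+1R-4 is the stretch alone. That sequence stood in the table under 2 names, the other being cas-miR5139_L-1, so its family is set by name only. As background, mature tRNAs end in CCA, as ppe-miR1511-3p_L+1R-4 and ppe-MIR1511-p5_1ss2TG do. The ending is not particular to them: bra-miR5654a has it too, and 35 of all 1011 sequences end in CCA. Whether any of these forms is a tRNA fragment was not tested, as no tRNA sequences were used here.

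The 9 sequences together summed to normalized counts of 17314, 16484 and 15849 in the leaf libraries and 5472, 5925 and 5409 in the petiole libraries. They made up 2.10% ± 0.08 of the leaf and 1.28% ± 0.03 of the petiole library totals (SD, n = 3 each). A library total here is the sum over the 1011 distinct sequences of the table, not all reads sequenced. All shares of a library and total estimated reads refer to that sum. Every leaf share lay above every petiole share. In whole tissue, fewer cells of a type and less RNA per cell cannot be told apart. Library totals were 1.81 times higher in leaf than in petiole on the deposited scale, with 729550 to 771494 estimated reads in leaf and 457189 to 474175 in petiole, so the differences of the forms are given on that scale and with all libraries scaled to equal totals. With equal totals the median log2 difference, petiole minus leaf, over the 601 tested sequences was 0.97 in place of 0.18, and limma called 321 higher and 107 lower in petiole in place of 128 and 170.

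**Figure D1:**
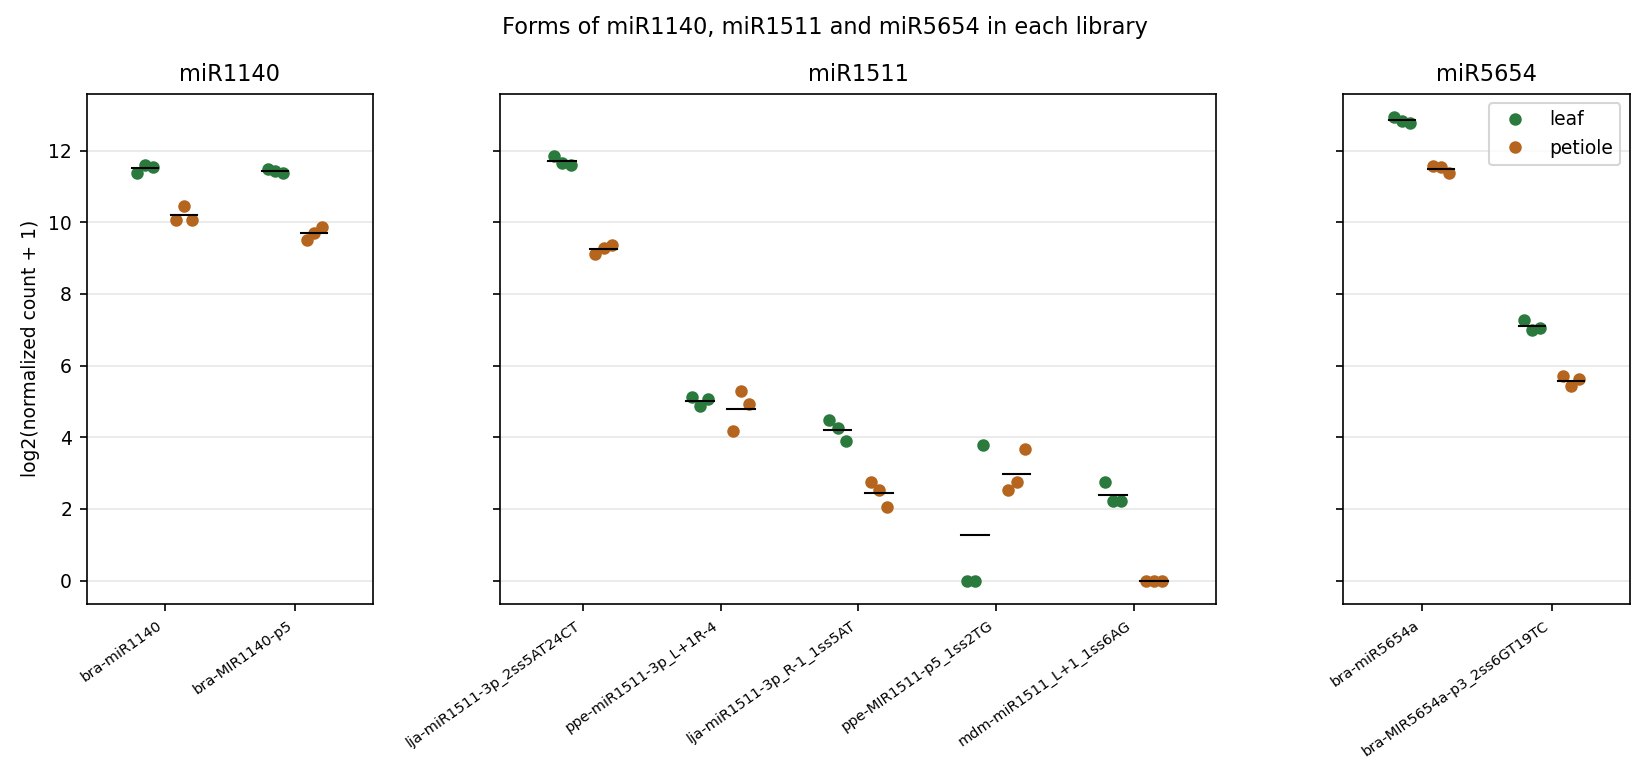
Normalized count of each form as log2(value + 1), by family, with 1 point per library (green leaf, brown petiole) and a bar at the mean. The leading form of each family lies lower in all 3 petiole libraries than in any leaf library, and ppe-miR1511-3p_L+1R-4 and ppe-MIR1511-p5_1ss2TG overlap.

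Of the 9 forms, 8 reached the minimum mean of 5 and were tested, and 6 of those were called lower in petiole at a limma adjusted p below 0.05. None was called higher. Of all tested sequences, 28.3% were called lower and 21.3% higher on the deposited scale. With equal totals the same 6 forms were called lower, against 17.8% lower and 53.4% higher of all tested sequences. After quantile normalization they were called lower too, against 24.3% of all tested sequences. Abundant sequences were called lower more often. On the deposited scale, a fit limited to a mean of at least 50 called all 5 members tested lower. That fit called 106 lower and 50 higher of all 186 sequences tested. In 6 of the 8 tested forms every petiole library lay below every leaf library, on both scales. Among all tested sequences this held for 31.3% on the deposited scale and 18.8% with equal totals. The median log2 difference of the 8 tested forms was -1.43 on the deposited scale, beside 0.18 over all tested sequences, and -0.59 beside 0.97 with equal totals. The filter was passed narrowly by ppe-MIR1511-p5_1ss2TG, with a mean of 5.82, and missed by mdm-miR1511_L+1_1ss6AG, with a mean of 2.18. Of the 6 called forms, 5 had a mean above the minimum in each tissue. The 23 nt form lja-miR1511-3p_R-1_1ss5AT passed through leaf alone and ppe-MIR1511-p5_1ss2TG through petiole alone, so the counts and medians over the 8 forms are descriptions.

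The most abundant member, bra-miR5654a, fell about 2.55-fold from leaf to petiole. Its normalized counts were 7882, 7284 and 6926 in leaf and 3044, 2967 and 2664 in petiole, which placed it 18th to 19th in the leaf and 28th to 30th in the petiole libraries. The tissues did not overlap. The log2 difference was -1.35 ± 0.08 (SE) with a limma adjusted p of 1.3e-05, and with equal totals -0.49 ± 0.07 with an adjusted p of 0.00089. As a share of the library it went from 0.932% ± 0.054 to 0.662% ± 0.042 (SD, n = 3).

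Its partner from the p3 side, bra-MIR5654a-p3_2ss6GT19TC, stood far below it, at 154, 126 and 131 in leaf and 51.0, 42.2 and 47.9 in petiole. It was again lower in every petiole library. The log2 difference was -1.52 ± 0.13 (limma adjusted p = 8.8e-05), and -0.68 ± 0.14 with equal totals (adjusted p = 0.0052). The partner supplied 1.82% ± 0.11 of the family sum in leaf and 1.61% ± 0.19 in petiole. The ratio of bra-miR5654a to its partner, with 1 added to each count, was 51.0, 57.3 and 52.4 in leaf and 58.5, 68.7 and 54.5 in petiole. These ranges overlapped (two-sided exact permutation p = 0.2, where 3 against 3 libraries cannot give less than 0.1). A ratio within a library does not depend on how that library was scaled, apart from the added 1.

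Longer copies of both miR5654 forms stood in the table under predicted names, and are shown for their ends.
PC-5p-235191_14: caataaatcccaagcatcatcca
PC-3p-124326_37: atgattcttgggatttatcttt
The first is bra-miR5654a with 2 more bases at the 5′ end. It was listed at 0, 7.30 and 7.41 in leaf and at 0 in all petiole libraries. The second is bra-MIR5654a-p3_2ss6GT19TC with 1 more base at the 3′ end and so has the same seed. It had 17.6, 21.9 and 22.2 in leaf and 0, 0 and 4.52 in petiole, and was called lower, with a log2 difference of -3.60 (limma adjusted p = 0.0063), and of -3.11 with equal totals (adjusted p = 0.015). It too passed the filter on the mean through leaf alone. For PC-3p-124326_37 every petiole value lay below every leaf value, while PC-5p-235191_14 was at 0 in leaf replicate 1 too.

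The miR1140 arms were of similar abundance, unlike those of miR5654. The form bra-miR1140 had normalized counts of 2667, 3067 and 2986 in leaf and 1074, 1411 and 1067 in petiole. The form bra-MIR1140-p5 had 2856, 2755 and 2665 in leaf and 726, 830 and 925 in petiole. In leaf the ranges of the arms overlapped, and in petiole bra-miR1140 was the higher arm in each library. Both arms fell in petiole. For bra-miR1140 the log2 difference was -1.31 ± 0.12 (SE; limma adjusted p = 0.00016), and -0.45 ± 0.11 with equal totals (adjusted p = 0.012), the smallest difference among the 6 called forms on either scale. For bra-MIR1140-p5 it was -1.74 ± 0.09 (limma adjusted p = 1.1e-05), and -0.89 ± 0.10 with equal totals (adjusted p = 0.00030).

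The miR1140 arms were nearly even in leaf and less so in petiole. The ratio of bra-miR1140 to bra-MIR1140-p5 was 0.934, 1.11 and 1.12 in leaf and 1.48, 1.70 and 1.15 in petiole. The ranges did not overlap, but petiole replicate 3 lay close to the leaf values. The difference in the mean log2 ratio was 0.44, and the two-sided exact permutation p was 0.1, the smallest that 3 against 3 libraries can give. The p5 side thus held 48.7% ± 2.6 of the family sum in leaf and 41.3% ± 4.8 in petiole (SD, n = 3).

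**Figure D2:**
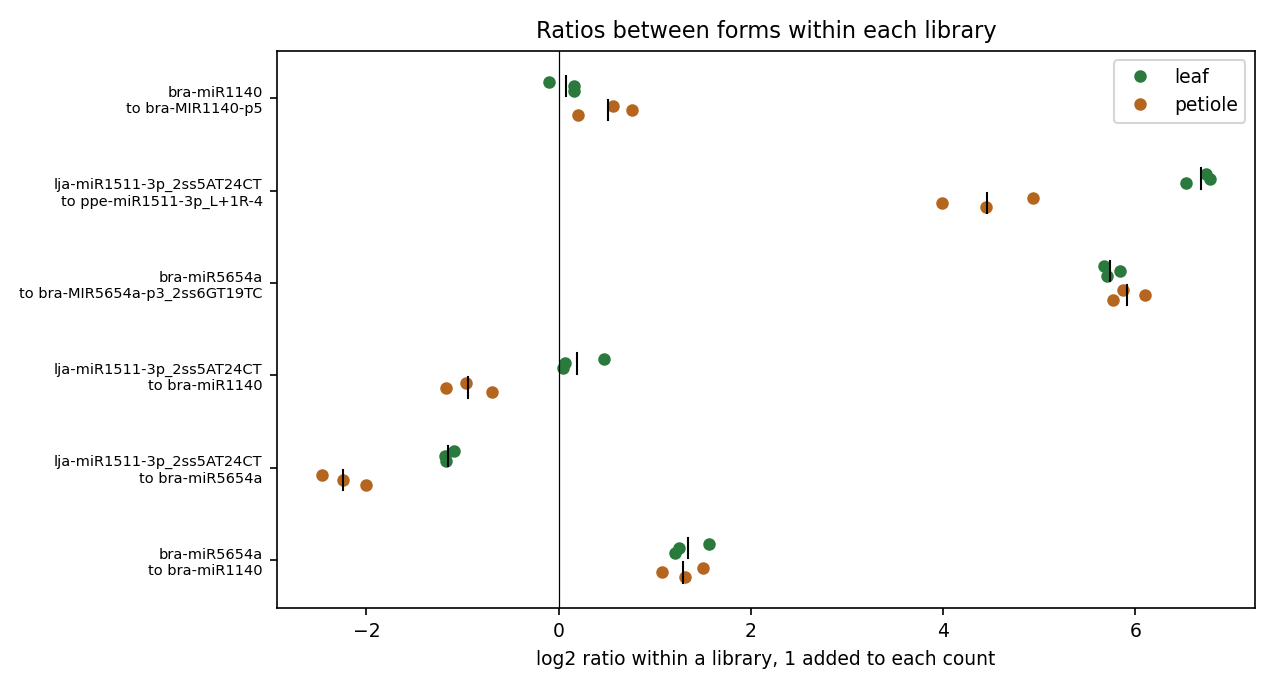
Ratio between 2 forms in each library, as log2 with 1 added to each normalized count, with 1 point per library (green leaf, brown petiole) and a bar at the mean. The ratio of the 24 nt to the 18 nt miR1511 form lies at 6.53 to 6.78 in leaf and 3.99 to 4.94 in petiole, while that of bra-miR5654a to bra-miR1140 overlaps between the tissues.

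The largest fall among the 8 tested forms, on the deposited scale and with equal totals, was that of lja-miR1511-3p_2ss5AT24CT, the 24 nt form that carried nearly all of miR1511. Its normalized counts were 3695, 3202 and 3078 in leaf and 550, 625 and 661 in petiole, from an estimated 2906 to 3562 and 582 to 731 reads. Leaf was 5.43 times higher, with no overlap. The log2 difference was -2.44 ± 0.10 (SE) with a limma adjusted p of 4.0e-06, and -1.58 ± 0.10 with equal totals (adjusted p = 2.4e-05). After quantile normalization it was -1.96, and the rare 23 nt form then differed more, by -2.17. On the deposited scale the 24 nt form stood 59th from the lowest of 601 tested sequences, and with equal totals 62nd. A length of 24 nt is more usual among plant siRNAs than among miRNAs. Of the 462 named sequences 96 were 24 nt long, and lja-miR1511-3p_2ss5AT24CT was the second most abundant of them, after bra-MIR5726-p3_1ss20GA. Of 58 named 24 nt sequences that were tested, 5 were called lower and 13 higher in petiole, with a median log2 difference of 0.43. With equal totals 2 were called lower and 43 higher, with a median of 1.24. These 58 include lja-miR1511-3p_2ss5AT24CT, itself among the lower calls on the deposited scale and with equal totals, and ppe-MIR1511-p5_1ss2TG.

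The shorter miR1511 forms from the same start were rare. The 23 nt form lja-miR1511-3p_R-1_1ss5AT, also listed as mdm-miR1511_L+1R+1_1ss6AG, had 21.3, 18.2 and 13.8 in leaf and 5.67, 4.80 and 3.16 in petiole. These values rest on an estimated 13 to 20.5 reads in leaf and 3.5 to 6 in petiole. It was called lower, with a log2 difference of -1.77 ± 0.31 (limma adjusted p = 0.0035), and of -1.01 ± 0.31 with equal totals (adjusted p = 0.025). With means of 17.8 in leaf and 4.54 in petiole it entered the test through leaf alone, so this call is conditioned on the tissue where it was high. The 22 nt form mdm-miR1511_L+1_1ss6AG had 5.71, 3.65 and 3.71 in leaf and was listed at 0 in all petiole libraries. No fold is given for it, since a 0 here need not mean absence: at most 3 values per library were above 0 and under 2 reads.

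The 18 nt form ppe-miR1511-3p_L+1R-4 was not called in either direction. It had 33.7, 28.1 and 32.3 in leaf and 17.0, 38.4 and 29.4 in petiole, so the petiole values spanned the leaf values. The log2 difference was -0.21 with a 95% interval of -0.94 to 0.51 (limma adjusted p = 0.57). With equal totals it was 0.61, with an interval of -0.11 to 1.33 (adjusted p = 0.11), so its sign depends on the scale. The 24 nt form was 106, 110 and 92.4 times as abundant as the 18 nt form in leaf and 30.6, 15.9 and 21.8 times in petiole, with 1 added to each count. The mean log2 ratio, petiole minus leaf, differed by -2.22, without overlap between the tissues, at the smallest two-sided exact permutation p that the design allows, 0.1. The 18 nt form accordingly held 0.931% ± 0.086 of the miR1511 sum in leaf and 4.27% ± 1.37 in petiole.

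The entry ppe-MIR1511-p5_1ss2TG went against its family on the deposited values, but within a wide error. It was listed at 0, 0 and 12.7 in leaf and had 4.73, 5.76 and 11.8 in petiole. Leaf replicate 3 was above all petiole values and the other leaf libraries were at 0. The log2 difference was 1.72, with a 95% interval of -0.90 to 4.35 (limma adjusted p = 0.23). With equal totals it was 2.26 (adjusted p = 0.084). It was 0.66 with 5 added and 1.09 without leaf replicate 1 or 2. Without leaf replicate 3 it was 2.98 with an adjusted p of 0.0041, but the leaf values left are both 0 and have no spread, so that p is not read as a call.

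**Figure D3:**
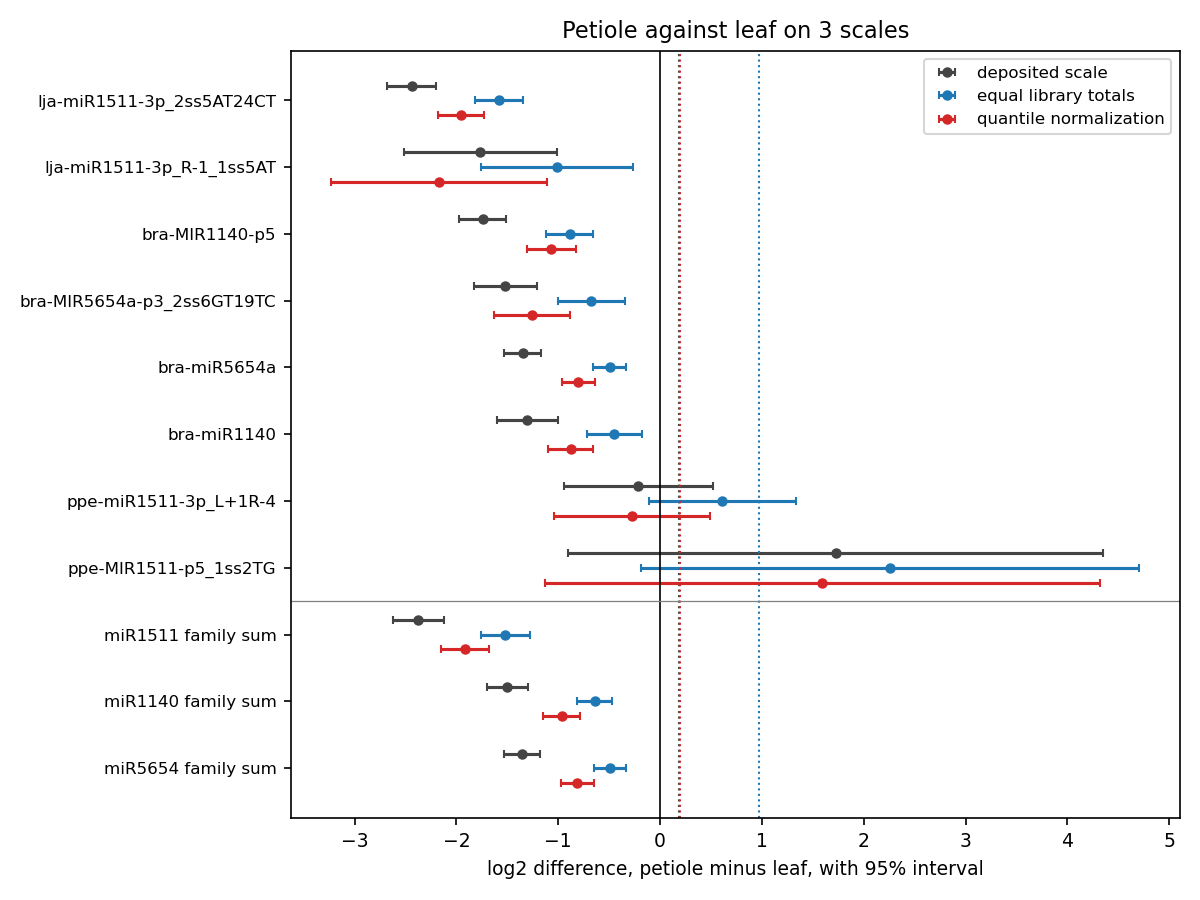
Log2 difference, petiole minus leaf, of the 8 tested forms and the 3 family sums, with 95% intervals from limma, on the deposited scale (grey), with equal library totals (blue) and after quantile normalization (red). Dotted lines give the median of the 601 tested sequences on each scale. They do not give the median of the families, which was -0.77 on the deposited scale and 0.08 with equal totals. In 6 forms and all 3 sums the intervals lie wholly below 0 on every scale. The intervals of the 18 nt form and of ppe-MIR1511-p5_1ss2TG span 0.

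Summed over their forms, all 3 families were lower in petiole. The miR1140 sum went from 5665 ± 150 to 2011 ± 221 and the miR5654 sum from 7501 ± 495 to 2939 ± 201 (SD, n = 3). The miR1511 sum went from 3382 ± 328 to 652 ± 66.7, a 5.18-fold difference. In the fit over 80 families the log2 differences were -1.50 ± 0.08 for miR1140, -2.37 ± 0.10 for miR1511 and -1.35 ± 0.07 for miR5654 (SE), with limma adjusted p of 4.7e-06, 1.7e-06 and 4.1e-06. Of the 80 families, 53.8% were called lower. With equal totals the differences were -0.64, -1.52 and -0.50, with limma adjusted p of 0.00017, 1.0e-05 and 0.00037, and 38.8% of families were called lower. The miR1511 sum was the 16th lowest of 80 on both scales, miR1140 the 21st and miR5654 the 26th. Relative to the median of all families, -0.77 on the deposited scale and 0.08 with equal totals, miR1511 lay at -1.60 on both scales.

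**Figure D4:**
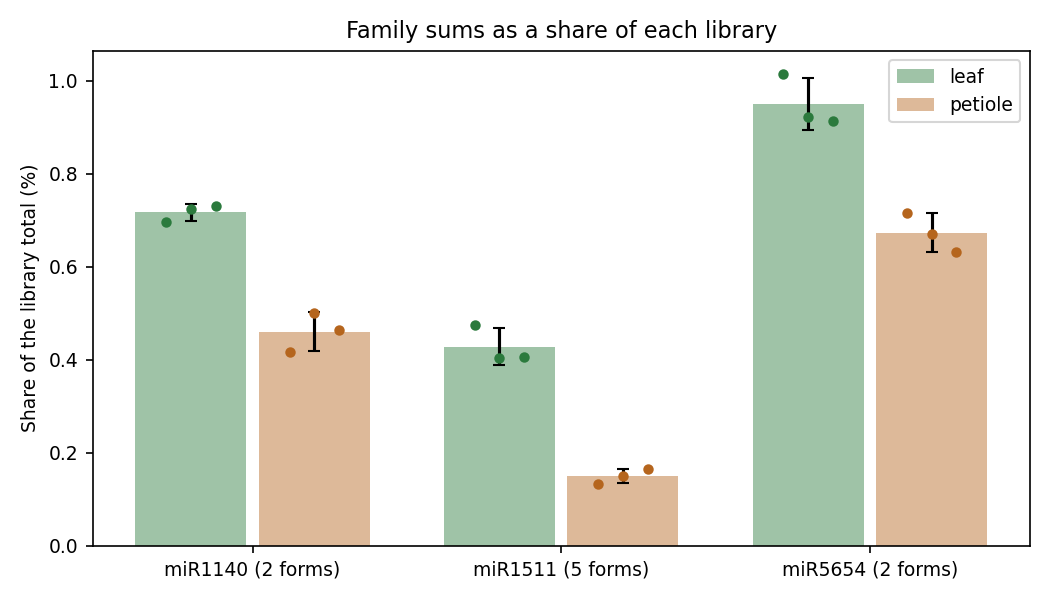
Sum of each family's forms as a percentage of the library total, with bars at the mean, error bars of 1 SD and 1 point per library (green leaf, brown petiole). Every petiole library lies below every leaf library in each family, and miR1511 falls from 0.428% to 0.150%.

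As a share of the library, miR1140 held 0.697%, 0.724% and 0.731% in leaf and 0.416%, 0.50% and 0.465% in petiole. The miR5654 share was 1.01%, 0.922% and 0.913% in leaf and 0.716%, 0.671% and 0.632% in petiole. The miR1511 share was 0.474%, 0.405% and 0.406% in leaf and 0.134%, 0.150% and 0.164% in petiole. In all 3 families the tissues were separated, with the widest gap for miR1511.

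The abundant forms stood in a different order in the 2 tissues. In leaf, lja-miR1511-3p_2ss5AT24CT stood next below bra-miR5654a, only just above bra-miR1140, whose highest value of 3067 lay under its lowest of 3078. In petiole it was the lowest of the 4 abundant forms, under bra-MIR1140-p5 (550 to 661 against 726 to 925). Within libraries the ratio of lja-miR1511-3p_2ss5AT24CT to bra-miR1140 was 1.39, 1.04 and 1.03 in leaf and 0.513, 0.444 and 0.620 in petiole. Its ratio to bra-miR5654a was 0.469, 0.440 and 0.444 in leaf and 0.181, 0.211 and 0.248 in petiole. Both ratios were lower in every petiole library, with differences in mean log2 ratio of -1.13 and -1.09 (two-sided exact permutation p = 0.1 each, the smallest possible). The ratio of bra-miR5654a to bra-miR1140 differed by -0.04, with overlapping values and an exact permutation p of 0.9. These 3 ratios were compared with earlier results known, and with adjustment none could pass.

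**Figure D5:**
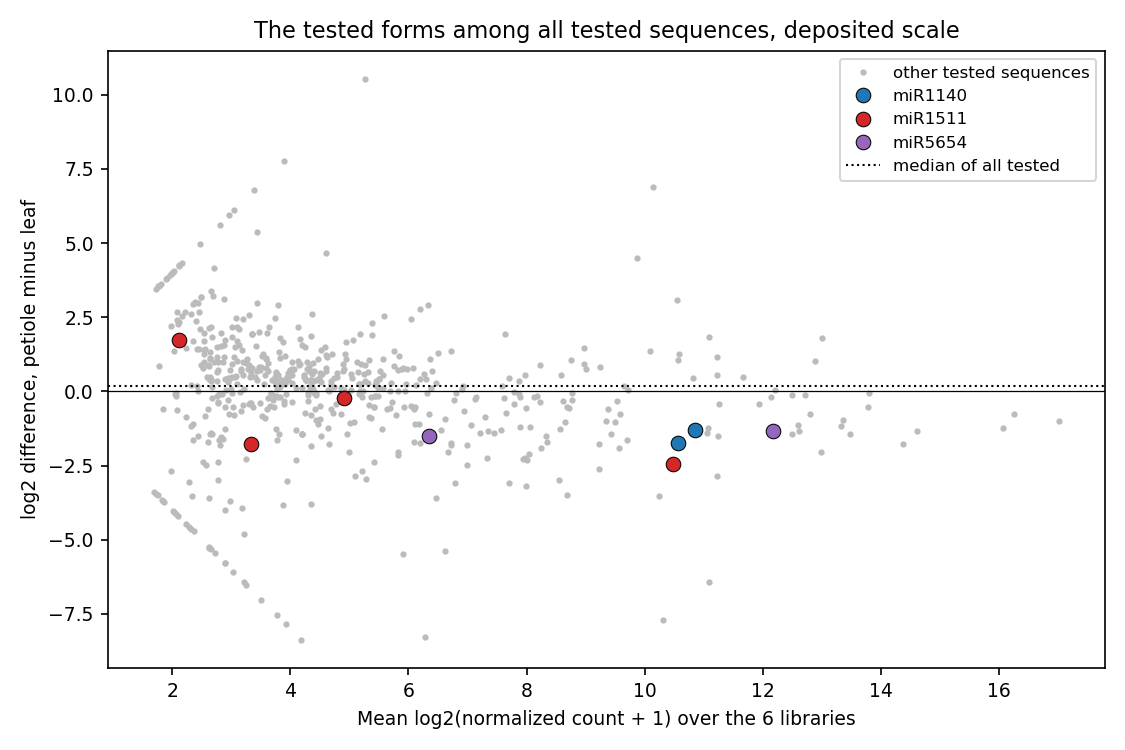
Log2 difference, petiole minus leaf, on the deposited scale against the mean log2(normalized count + 1) over the 6 libraries for the 601 tested sequences, with the 8 tested forms coloured by family. The 3 leading forms lie at differences of -1.31 to -2.44, below the median of 0.18 (dotted line).

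Profiles like those of the leading forms were looked for among 144 named non-member sequences with a mean of at least 50, by the root mean square difference of log2 profiles over the 6 libraries, each centred on its own mean. For bra-miR5654a the nearest were aly-MIR159a-p3_1ss12CT (0.043), bra-MIR5719-p3_1ss17AT (0.082) and bra-MIR5719-p5_2ss2AT19AC (0.090). For bra-miR1140 they were the same pair of miR5719 arms (0.10 and 0.113) and ath-miR172a_R+1 (0.119). For lja-miR1511-3p_2ss5AT24CT they were bra-miR156a-5p (0.165), bra-MIR5721-p5_1ss10AG (0.165) and ath-miR393b-3p_1ss13CA (0.184). The 6 libraries are 2 tissues, so this likeness is mostly a like difference between them.

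Set beside other families, the 6 lower and 0 higher calls of 8 tested forms compare with 14 lower and 7 higher of 22 tested forms of the Brassica families miR5711 to miR5726, whose median log2 difference was -1.32. The Brassica families miR9552 to miR9569 had 5 lower and 10 higher of 44, with a median of 0.43. Most of these 44 were forms named miR9563, so the median mainly describes forms of that name on either scale. The conserved families, such as miR156, miR166 and miR319, had 50.3% of their tested forms lower and 26.4% higher, with a median of -0.54. With equal totals the first list had 11 lower and 7 higher (median -0.47) and the second 5 lower and 34 higher (median 1.23). The lower calls of the second list with equal totals were mostly of names other than miR9563, such as miR9552 and miR9568. The conserved families then had 26.4% lower and 48.4% higher (median 0.31), the reverse of the balance on the deposited scale. These lists are descriptions, and no test of the lists against each other was made.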

How the data were processed

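Total RNA was made into TruSeq small RNA libraries and sequenced on a HiSeq instrument, and ACGT101-miR removed junk, repeats and reads of other RNA classes, per the labels' protocols. Aligner, genome build, miRBase release and scaling rule were not given in the sources used here. Per the file headers, the deposited values are normalized counts, a signal that the authors had scaled per library. Low values lay on a step, taken as 1 read, of 1.04 to 1.06 in leaf and 0.904 to 0.959 in petiole. Within 0.02 reads, 71.5% to 76.9% of values under 60 reads were whole and 98.4% or more whole or whole plus 0.5, so reads had been divided among entries and counts were not recovered; read numbers are estimates. Forms that differ by few bases may share such reads.

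Of 1069 entries, 58 repeated a sequence with the same values and were merged. Some entries kept as different sequences had identical fits with equal totals, such as bra-MIR9563a-p5_1 and bra-MIR9563a-p5_2. Each of them was counted among all tested. Values were tested as log2(value + 1), petiole minus leaf, with limma 3.58.1 (R 4.3.3) and a mean-variance trend on sequences with a mean of at least 5, and called at a Benjamini-Hochberg adjusted p below 0.05 over all tested. Family sums were fitted likewise, with predicted entries left out. The added 1 understates differences of low forms. The fit was tested on simulated data. Ratios were compared by exact permutation. Arms were aligned with Biopython 1.88 (match 1, mismatch -1, gap -2). The labels do not tell whether replicates are separate plants, and p-values cover only the spread between these libraries, which may be technical. Replicates of a tissue differed by more than sampling noise (chi-square per degree of freedom of 3.45 to 8.47), so each counted once.

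Members and lists were chosen with earlier results of these data known. Every member is named, together with the 3 nearest profiles per leading form and sequences within 2 substitutions of a member over at least 16 bases or sharing its seed. The alternatives were equal totals, quantile normalization, other pseudocounts and filters, a replicate block, and leaving out each library.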

Additional observations from a re-analysis of the deposited data

How the results depend on the processing

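The 6 called forms were called lower under equal totals, quantile normalization, an added 0.5 or 5, no filter, the replicate block and without each library in turn; with a minimum mean of 50 only 5 members were tested and all 5 were called. Without the filter 7 members were called, mdm-miR1511_L+1_1ss6AG being the added one. The sign of ppe-miR1511-3p_L+1R-4 turned to 0.61 with equal totals and, over the fits that left out 1 library, ranged from -0.46 to 0.099 (the latter without petiole replicate 1), uncalled in each case; the cause was not tested. Of all sequences, 298 were called, and 156 of the 186 with a mean of at least 50, where fewer were tested. Of those 156, 106 were called lower and 50 higher. Leaving out 1 library gave 245 to 284 calls in all, 6 to 7 among members (the added one being ppe-MIR1511-p5_1ss2TG without leaf replicate 3, against leaf values of 0), and log2 differences of -1.58 to -1.42 for miR1140, -2.43 to -2.29 for miR1511 and -1.39 to -1.30 for miR5654. The petiole minus leaf differences in mean log2 ratio between forms ranged over 0.31 to 0.59 for the miR1140 arms, -2.46 to -1.99 for the 24 nt to the 18 nt miR1511 form and 0.078 (without petiole replicate 2) to 0.25 for the miR5654 arms, against 0.17 with all libraries.

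Leaf and petiole libraries share replicate numbers, but same-numbered libraries did not deviate together (correlations of 0.073, 0.0067 and 0.0076), and not every library correlated best with its own number. The numbers were not taken to pair the samples. With the replicate block 280 sequences and 6 members were called, and the family differences were the same, -1.50, -2.37 and -1.35. Forms below about 20 reads, the 22 and 23 nt miR1511 forms and ppe-MIR1511-p5_1ss2TG, are limited by depth.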

Other observations

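The stretch ggctctgatacca, 13 bases of the 18 shared by the miR1511 forms, also stood in all 3 entries named miR845, a family that in Arabidopsis pollen targets the primer binding sites of retrotransposons. It was looked for after the sequences were seen. The form ath-miR845a had normalized counts of 35.3, 21.9 and 30.7 in leaf and 0, 0 and 5.43 in petiole, lower in every petiole library. Its log2 difference was -4.00 ± 0.77 (SE, limma adjusted p = 0.0056), and with equal totals it was called lower too (adjusted p = 0.013). With means of 29.3 in leaf and 1.81 in petiole it passed the filter through leaf alone, so this call is conditioned on that tissue. The 24 nt entry vvi-MIR845c-p3_2ss4AC24GC had 4.15, 7.30 and 3.18 in leaf and 4.73, 6.24 and 7.69 in petiole. It was not called (limma adjusted p = 0.49), although with equal totals it was called higher (adjusted p = 0.042). With means of 4.87 in leaf and 6.22 in petiole it passed the filter through petiole alone. The entry vvi-MIR845c-p3_2ss3AC23GC had 0, 3.65 and 0 in leaf and 5.67, 4.32 and 5.88 in petiole and was below the filter on the mean. Within 2 substitutions over 16 bases, mdm-miR1511_L+1_1ss6AG also matched cme-miR1863_L-1_2ss23TC24GA, which had a leaf mean of 2.45 ± 2.35 and a petiole mean of 4.65 ± 1.46 (SD, n = 3) and was not tested.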
